A study of Mus musculus with 9 samples.

Results

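Mx1, Mx2, Rsad2, Cmpk2, Bst2, Ifitm1, Ifitm2, Ifitm3 and Isg20 are grouped here as interferon-induced restriction factors, host genes whose products act against viruses. These 9 genes, listed by name for their function, were followed among the 54532 gene identifiers counted by RNA-seq in mouse kidney. The study asked how kidney gene expression changed in mice without Trex1 and what a STING antagonist did to that change. The 9 libraries fall into 3 groups of 3. The first was WT. The second was Trex1-/- given PBS for 2 weeks, and the third was Trex1-/- given SN-011 for 2 weeks. All were labelled C57BL/6J. Per the study's methods, Trex1-/- mice were bred from Trex1+/- parents and were 1 month old at the start, and they were injected intraperitoneally each day with 10 mg/kg SN-011 or with its vehicle, Tween 80 in PBS. The WT mice of the study were purchased at 4 to 8 weeks of age. The age and any injection of these WT kidneys, and the sex of all animals, are not given in the sources used here, so vehicle, origin and genotype cannot be told apart between WT and the other groups. No WT mice with SN-011 were analysed here.

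TREX1 is an exonuclease that removes DNA from the cytosol. Without it, DNA that the cell fails to clear is sensed by cGAS, which signals through STING to produce type I interferon. Interferon bound to its receptor activates transcription factors, which bind a DNA element in the promoters of interferon-stimulated genes, the restriction factors among them. In kidney, such genes are used as a readout of interferon acting on the tissue in lupus-like disease, and SN-011 is an inhibitor that binds STING.

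The factors act at different steps of infection. Mx1 and Mx2 encode dynamin-like GTPases that trap incoming viral ribonucleoproteins. Many laboratory strains carry defective Mx alleles, and the annotation lists Mx2 as a polymorphic pseudogene, so the transcripts measured here need not yield active protein. Rsad2 encodes viperin, a radical enzyme that makes a chain-terminating nucleotide, and Cmpk2 encodes a mitochondrial nucleotide kinase that acts in the same nucleotide pathway. Bst2 encodes tetherin, which holds budding virions at the cell surface. The Ifitm genes encode small membrane proteins that hinder fusion of viral and cellular membranes, and Isg20 encodes an exonuclease that degrades RNA.

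Several members are neighbours in the genome (GRCm38). Mx1 (chromosome 16, 97447035 to 97462907, minus strand) and Mx2 (97535308 to 97560900, plus strand) lay 72.4 kb apart. Rsad2 (chromosome 12, 26442746 to 26456452, minus strand) and Cmpk2 (26469204 to 26479837, plus strand) pointed away from each other with a gap of 12.8 kb. Ifitm2 (chromosome 7, 140954837 to 140955987, minus strand), Ifitm1 (140967221 to 140969825, plus strand) and Ifitm3 (141009586 to 141010770, minus strand) lay in 1 cluster. Isg20 (78913424 to 78920396, plus strand) was on the same chromosome, and Bst2 (71534255 to 71537456, minus strand) was on chromosome 8.

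Promoter sequence was examined because most of these genes moved together across the libraries, as described further on. RefSeq windows (GRCm38.p6) of 250 bases before to 50 after a RefSeq start were at hand for 7 of the 9 members, all but Mx1 and Mx2. The core of the interferon-stimulated response element, to which such factors bind, was searched on both strands as TTTC, any 2 bases and TTTC. These 7 genes have 9 windows, of which 3 belong to Isg20. The Ifitm1 window began at base 140967826, inside the gene as positioned above, so the sequence before that gene start was not searched. Windows 2 and 3 of Isg20 also lay inside the gene. The core was found in 4 of the 9 windows, those of Rsad2, Bst2, Ifitm2 and Ifitm3, and in 3.44% of all 32851 windows. The sequences upstream of Rsad2, of its neighbour Cmpk2 and of Bst2 are given with these genes, read 5′ to 3′ on the strand of the gene, with the core in capitals. They lie at chr12:26456453-26456702 (minus strand), chr12:26468965-26469203 (plus strand) and chr8:71537473-71537722 (minus strand).
Rsad2: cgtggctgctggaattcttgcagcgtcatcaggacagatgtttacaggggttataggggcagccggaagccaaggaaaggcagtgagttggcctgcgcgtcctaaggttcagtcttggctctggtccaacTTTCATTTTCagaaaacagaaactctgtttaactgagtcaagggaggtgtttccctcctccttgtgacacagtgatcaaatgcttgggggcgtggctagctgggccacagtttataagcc
Cmpk2: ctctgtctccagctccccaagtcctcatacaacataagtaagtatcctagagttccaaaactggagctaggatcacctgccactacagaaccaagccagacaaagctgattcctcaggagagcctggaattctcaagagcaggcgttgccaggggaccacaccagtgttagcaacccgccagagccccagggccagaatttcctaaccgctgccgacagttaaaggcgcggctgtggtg
Bst2: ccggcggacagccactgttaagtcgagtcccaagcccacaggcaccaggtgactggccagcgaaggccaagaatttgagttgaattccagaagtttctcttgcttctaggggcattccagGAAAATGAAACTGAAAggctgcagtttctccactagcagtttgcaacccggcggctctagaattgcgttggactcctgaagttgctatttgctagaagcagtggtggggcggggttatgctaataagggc
The capitals in Rsad2 are 1 core, from base -120 to -111 of the gene start. Those in Bst2 are 2 overlapping cores on the other strand, from -130 to -115. The Cmpk2 window held none.

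Ifitm2 and Ifitm3 are shown because their levels parted in these kidneys although both windows held a core. Their stretches of 27 bases begin at the first core of each gene, at chr7:140955981-140956007 and chr7:141010716-141010742, both on the minus strand.
Ifitm2: GAAAAGGAAAttgctagagaaagggcg
Ifitm3: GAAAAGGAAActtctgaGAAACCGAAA
The first core was the same in both genes. Ifitm3 held a second core in this stretch and Ifitm2 did not, and the stretches matched at 16 of 27 positions. In Ifitm3 the cores lay after the RefSeq start, from base 3 to 29 inside the first exon, and in Ifitm2 the core lay before it, from -46 to -37. The gamma-activated site core, another interferon response sequence, was searched as TTCNNNGAA. It was found in 3 of the 9 windows, those of Bst2 and Ifitm3 and 1 of Isg20, and in 8.30% of all windows, and in Bst2 it overlapped the first response element core. These matches describe the letters only. Binding was not measured.

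The libraries held 16118813 to 21928965 counts. The targeted gene could not serve as a check of genotype, since Trex1 was listed at 0 counts in all 9 libraries and all 1147 of its exonic bases are shared with Atrip on the same strand. The 7 kidney tubule markers summed to 17621 to 19418 CPM (counts scaled to a common library size with TMM factors) in WT, 15897 to 16842 CPM with PBS and 16675 to 17093 CPM with SN-011, so every Trex1-/- library lay below every WT library. With PBS against WT, 6 of the 7 were below 0 on the log2 scale, and the 1 called lower was the glucose carrier Slc5a2, at -0.71 (adjusted p 0.0163). Transcripts of 4 Y-linked genes summed to over 10 CPM in all 3 PBS libraries, in WT replicate 3 and in SN-011 replicate 2, and Xist in the other 4. SN-011 replicate 2 stood apart from its group, differing from the other SN-011 libraries by 67.4 and 76.8 times the counting variance against 15.6 between those other libraries. WT replicate 3 differed from the other WT libraries by 31.9 and 32.1 times against 7.90. Calls of the members are also given without each of these libraries. Each was the only library of its group with Y-linked transcripts, which all 3 PBS libraries held. Leaving it out sets a group with Xist alone against PBS, so this split and the group cannot be told apart there. Nothing in the labels says whether libraries came from separate animals, while the paper's legend of its kidney heat map gives n = 3 for each group. The p-values measure the spread between libraries.

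All 9 members passed the filter on low counts and entered the quasi-likelihood F test of edgeR, with p-values adjusted over 16646 genes by the Benjamini-Hochberg method. In Trex1-/- with PBS, 6 of the 9 rose over WT at an adjusted p under 0.05, against 1.44% of all genes tested. These were Mx1, Mx2, Bst2, Cmpk2, Ifitm3 and Rsad2. Isg20 was higher without passing the threshold, and Ifitm1 and Ifitm2 differed little. In 7 of the 9, every PBS library was above every WT library, as was so for 13.1% of all genes. The median log2 fold change was 1.40 over the members and 0.003 over all genes tested. Without WT replicate 3, the same 6 and Isg20 were called, with adjusted p from 3.43e-04 (Bst2, at 2.69) to 0.0266 (Isg20, at 1.53), among 457 of 17034 genes called in either direction, against 313 of 16646 with all libraries. That fit sets WT libraries with Xist against PBS libraries with Y-linked transcripts, so genotype and this split cannot be told apart in it. Without SN-011 replicate 2, which enters through the shared spread, the same 7 were called among 774 of 17014 genes. In bulk kidney, more cells that make a transcript and more transcript per cell cannot be told apart.

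**Figure D1:**
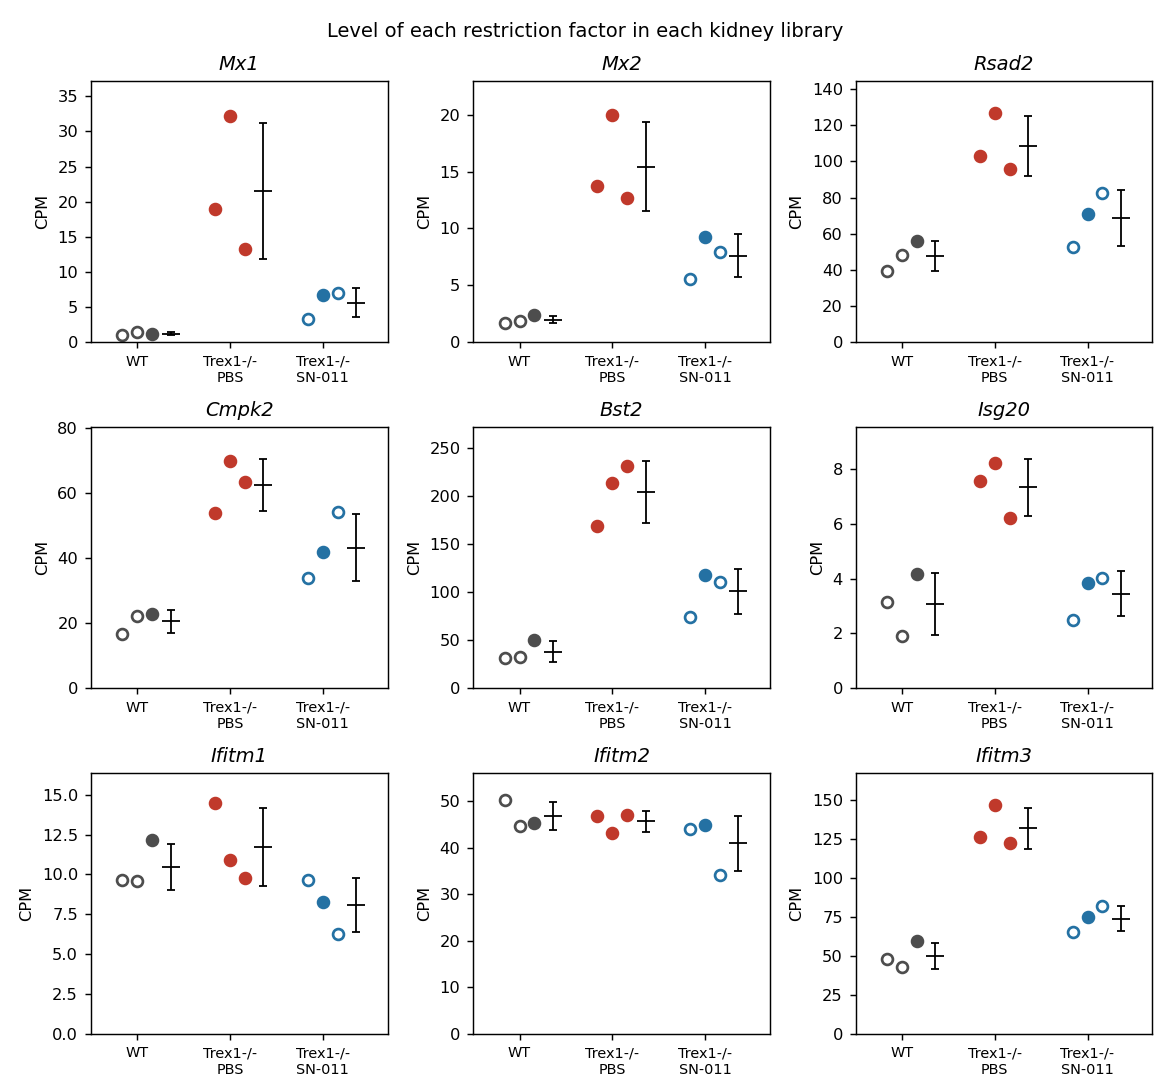
Level of each of the 9 factors in CPM (vertical axis, from 0) in the libraries of WT, Trex1-/- with PBS and Trex1-/- with SN-011; each point is 1 library, filled where Y-linked transcripts were present and open where Xist was, and the bar with whiskers is the mean ± SD (n = 3). In 7 panels the PBS points lie above all WT points, while those of Ifitm1 and Ifitm2 overlap with WT.

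Mx1 and Mx2, the GTPases, had the largest changes of the members. Mx1 was at 1.04, 1.40 and 1.21 CPM in WT replicates 1, 2 and 3, at 18.9, 32.2 and 13.3 CPM in the PBS libraries, and at 3.23, 6.72 and 6.94 CPM in the SN-011 libraries. The 3 groups did not overlap, and the PBS libraries differed among themselves by a larger ratio than those of any other member. The WT level rests on 21 to 31 counts a library. With PBS, the mean of Mx1 rose from 1.22 ± 0.181 CPM to 21.5 ± 9.72 CPM (± SD, n = 3 here and for the other means), which is 4.13 in log2 units (SE 0.402, and 4.21e-04 as the adjusted p of edgeR). Mx2 was at 1.70, 1.90 and 2.37 CPM in WT, at 13.7, 19.97 and 12.7 CPM with PBS, and at 5.55, 9.27 and 7.95 CPM with SN-011. Its groups did not overlap either, and replicate 2 was the highest PBS library for both genes. Mx2 rose from 1.99 ± 0.347 to 15.4 ± 3.95 CPM, or by 2.96 on the log2 scale (SE 0.258, adjusted p 2.49e-04). Mx1 and Mx2 are paralogs, and reads that map to both equally well were not counted by the authors.

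Rsad2 and Cmpk2, which act on nucleotides, were already well transcribed in WT. Rsad2 was at 39.4, 48.0 and 56.0 CPM in WT, at 103, 127 and 95.7 CPM with PBS, and at 52.4, 71.1 and 82.5 CPM with SN-011. The PBS libraries stood above all others, and the lowest SN-011 library lay within the WT range. Rsad2 rose from 47.8 ± 8.32 to 109 ± 16.4 CPM, or by 1.18 on the log2 scale (SE 0.183, adjusted p 0.00753). Cmpk2 was at 16.6, 22.2 and 22.7 CPM in WT, at 54.0, 69.9 and 63.4 CPM with PBS, and at 33.7, 41.8 and 54.1 CPM with SN-011. The highest SN-011 library reached the lowest PBS library, and both groups were above WT. Cmpk2 rose from 20.5 ± 3.41 to 62.4 ± 8.01 CPM, or by 1.61 on the log2 scale (SE 0.185, adjusted p 0.00126).

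Bst2, the tether of budding virions, had the highest CPM of the members with PBS, before any correction for gene length. It was at 31.4, 31.8 and 50.3 CPM in WT, at 169, 213 and 231 CPM with PBS, and at 73.7, 118 and 110 CPM with SN-011. The 3 groups did not overlap. Bst2 rose from 37.8 ± 10.8 to 204 ± 32.3 CPM, or by 2.44 on the log2 scale (SE 0.231, adjusted p 3.96e-04). Isg20, the exonuclease, was low, at 3.16, 1.90 and 4.17 CPM in WT, at 7.55, 8.23 and 6.22 CPM with PBS, and at 2.49, 3.83 and 4.04 CPM with SN-011. Its PBS libraries stood above the other 6, and the SN-011 libraries lay within the WT range. Its log2 fold change with PBS was 1.26 (95% interval 0.62 to 1.90), from 3.07 ± 1.14 to 7.33 ± 1.03 CPM, and the adjusted p was 0.0590. The threshold was passed in 8 of 20 alternative analyses, among them those without WT replicate 3 (adjusted p 0.0266), SN-011 replicate 1 (0.0456) or SN-011 replicate 2 (0.0362), each of which left out 1 library of the shared fit. Without WT replicate 3, no WT library held the Y-linked transcripts that all PBS libraries held.

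The 3 Ifitm genes of 1 cluster differed from each other. Ifitm3 was at 48.0, 42.6 and 59.2 CPM in WT, at 126, 147 and 122 CPM with PBS, and at 65.1, 74.9 and 81.6 CPM with SN-011. Its groups did not overlap, and it rose with PBS from 49.95 ± 8.44 to 132 ± 13.3 CPM, or by 1.40 on the log2 scale (SE 0.137, adjusted p 4.27e-04). Ifitm2 was at 50.2, 44.7 and 45.4 CPM in WT, at 46.9, 43.1 and 46.9 CPM with PBS, and at 43.9, 44.9 and 34.2 CPM with SN-011. Apart from the lowest SN-011 library, all its values lay close together. Its log2 fold change with PBS was -0.03, with a 95% interval of -0.28 to 0.21 (adjusted p 0.911). Ifitm1, the third gene of the cluster, was at 9.67, 9.62 and 12.1 CPM in WT, at 14.5, 10.9 and 9.76 CPM with PBS, and at 9.63, 8.29 and 6.29 CPM with SN-011. Its WT and PBS libraries overlapped, and the log2 fold change was 0.16, with a 95% interval of -0.27 to 0.60 (adjusted p 0.741). The Ifitm2 counts may miss reads, since 268 of its 655 exonic bases are shared with the predicted gene Gm45717 on the same strand.

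The count ratio of neighbours in 1 library does not depend on how libraries are scaled, and 3 ratios were examined, chosen after their values were seen. The ratio of Ifitm3 to Ifitm2 was 0.957, 0.954 and 1.30 in WT, 2.69, 3.41 and 2.60 with PBS, and 1.48, 1.67 and 2.39 with SN-011. The groups did not overlap in any of the 3 comparisons, each with an exact permutation p of 0.1 (two-sided; 0.129 adjusted over 9 tests), the smallest that 3 libraries against 3 allow. The ratio of Mx1 to Mx2 was 0.611, 0.738 and 0.512 in WT, 1.38, 1.61 and 1.05 with PBS, and 0.582, 0.725 and 0.873 with SN-011. The PBS libraries were above the rest (exact permutation p 0.1 in both comparisons), and SN-011 overlapped with WT (exact permutation p 0.5). The ratio of Rsad2 to Cmpk2 ran the other way, from 2.38, 2.16 and 2.47 in WT to 1.91, 1.82 and 1.51 with PBS (exact permutation p 0.1). With SN-011 it was 1.55, 1.70 and 1.52, which overlapped with PBS (exact permutation p 0.4). Cmpk2 thus took a larger share of the pair's counts in all 6 Trex1-/- libraries than in WT.

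**Figure D2:**
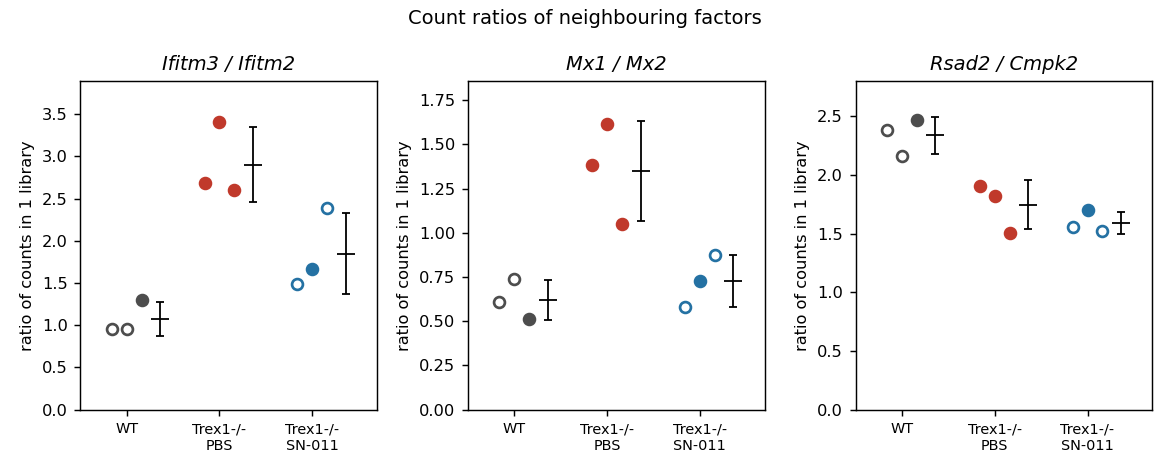
Ratio of the counts of Ifitm3 to Ifitm2, Mx1 to Mx2 and Rsad2 to Cmpk2 (vertical axes, from 0) in each library of the 3 groups, with the mean ± SD (n = 3); filled points held Y-linked transcripts and open points Xist. The ratios of Ifitm3 to Ifitm2 are 0.954 to 1.30 in WT and 2.60 to 3.41 with PBS, and those of Rsad2 to Cmpk2 are lower in every Trex1-/- library than in WT.

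Levels of different genes were compared as CPM per kb of exon. In WT, Ifitm3 (73.7 ± 12.4) and Ifitm2 (71.4 ± 4.62) were highest and did not differ beyond their spread. The Ifitm2 values per kb may be too low in all 3 groups, since the length includes the bases shared with Gm45717, so its place in these orders is uncertain. Bst2 (41.9 ± 11.9) came next, then Rsad2 (11.02 ± 1.92) and Ifitm1 (9.58 ± 1.32), which lay within each other's spread. Cmpk2 (4.92 ± 0.820), Isg20 (1.65 ± 0.611), Mx2 (0.550 ± 0.0959) and Mx1 (0.322 ± 0.0479) were lower in that order. With PBS, Bst2 (226 ± 35.8) and Ifitm3 (194 ± 19.7) were within each other's spread at the top, ahead of Ifitm2 (69.7 ± 3.37), Rsad2 (25.0 ± 3.78) and Cmpk2 (14.99 ± 1.92). Ifitm1 (10.7 ± 2.26) then stood above Mx1 (5.68 ± 2.57), Mx2 (4.27 ± 1.09) and Isg20 (3.94 ± 0.552), and these 3 were within their spread. With SN-011, Bst2 (111 ± 26.1) and Ifitm3 (109 ± 12.2) again led within their spread, followed by Ifitm2 (62.6 ± 9.02). Rsad2 (15.8 ± 3.51) and Cmpk2 (10.4 ± 2.47) came next within each other's spread, and Ifitm1 (7.38 ± 1.54) was within the spread of Cmpk2. Mx2 (2.10 ± 0.522), Isg20 (1.86 ± 0.450) and Mx1 (1.49 ± 0.551) were lowest, within their spread.

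The comparison of SN-011 with PBS asked how far the antagonist lowered these genes in Trex1-/- kidneys. All 9 members were lower on average with SN-011, and in 7 of the 9, all but Cmpk2 and Ifitm2, every SN-011 library was below every PBS library, against 8.41% of all genes. None passed an adjusted p of 0.05 by edgeR's quasi-likelihood test, nor did any of the 16646 genes fall at that threshold (0%). At an unadjusted p under 0.05 there were 8 of the 9 members, all but Ifitm2, and 1905 of all genes in either direction. The median log2 fold change was -0.83 over the members and -0.005 over all genes. DESeq2's Wald test called 6 members, Mx1, Mx2, Rsad2, Bst2, Ifitm3 and Isg20, among 183 of all 16646 genes in either direction. edgeR's exact test called 4, Mx1, Mx2, Bst2 and Ifitm3, among 127 genes, and limma-voom called 0 of all genes. The quasi-likelihood test without SN-011 replicate 2, the library that stood apart, also called 4, which were Mx1, Mx2, Bst2 and Ifitm3, among 519 of 17014 genes. That fit sets SN-011 libraries with Xist against PBS libraries with Y-linked transcripts, so treatment and this split cannot be told apart in it. With a Y-linked term, given further on, no member was called.

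Mx1 had the lowest value of these log2 fold changes, at -1.93 (SE 0.347, adjusted p 0.168), from 21.5 ± 9.72 to 5.63 ± 2.08 CPM. Without SN-011 replicate 2, which leaves SN-011 libraries with Xist against PBS libraries with Y-linked transcripts, it was -2.09 (adjusted p 0.0265). Isg20 was at -1.09 (SE 0.287, adjusted p 0.248), with 3.45 ± 0.837 CPM left, and at -1.17 without that library (adjusted p 0.0814). Mx2 was at -1.03 (SE 0.232, adjusted p 0.210) and 7.59 ± 1.89 CPM, and without SN-011 replicate 2 at -1.20 (adjusted p 0.0317). These are the GTPases and the exonuclease, and their SN-011 and PBS libraries did not overlap.

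Bst2 was at -1.02 (SE 0.221, adjusted p 0.210) and 101 ± 23.6 CPM, and at -1.16 without SN-011 replicate 2 (adjusted p 0.0318). Ifitm3 was at -0.83 (SE 0.135, adjusted p 0.153) and 73.9 ± 8.30 CPM, and at -0.85 without that library (adjusted p 0.0229). Ifitm3 had the smallest adjusted p of the members here. Rsad2 was at -0.66 (SE 0.181, adjusted p 0.250) with 68.7 ± 15.2 CPM, and at -0.69 without it (adjusted p 0.0979). Cmpk2 was at -0.53 (SE 0.179, adjusted p 0.313) with 43.2 ± 10.3 CPM, the member among those called higher in PBS than in WT whose PBS and SN-011 libraries overlapped. Ifitm1, which did not differ between PBS and WT, was at -0.54 (95% interval -0.98 to -0.09, adjusted p 0.358) with 8.07 ± 1.68 CPM. Ifitm2 was at -0.15 (95% interval -0.40 to 0.09, adjusted p 0.629) with 41.0 ± 5.91 CPM. Without SN-011 replicate 2, Cmpk2 was at -0.51 (adjusted p 0.190), Ifitm1 at -0.56 (adjusted p 0.208) and Ifitm2 at -0.23 (adjusted p 0.305). All values without that library set SN-011 libraries with Xist against PBS libraries with Y-linked transcripts.

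**Figure D3:**
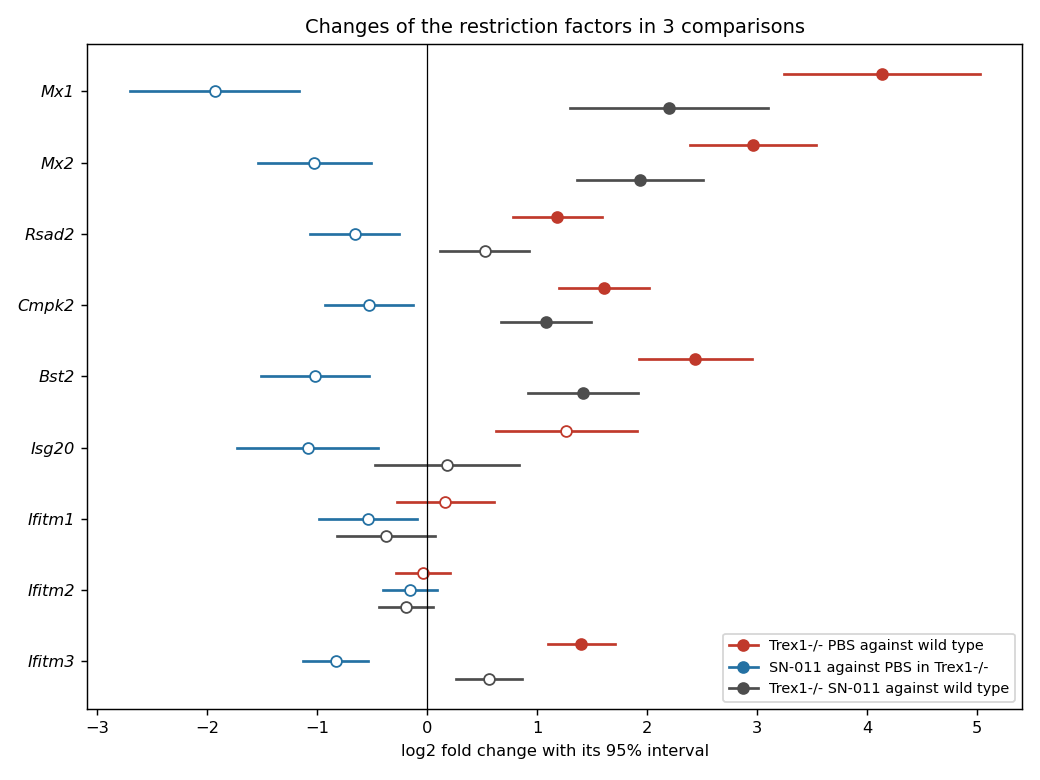
Log2 fold change (horizontal axis) of each factor in the 3 comparisons, with lines for the 95% interval; filled points had an adjusted p under 0.05 by edgeR's quasi-likelihood test. Filled points are 6 for PBS against WT, 0 for SN-011 against PBS and 4 for SN-011 against WT, and all 9 points of SN-011 against PBS lie below 0.

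With SN-011, 4 of the 9 members stayed above WT at the threshold, against 0.823% of all genes called higher. Mx1 was higher by a log2 fold change of 2.20 (adjusted p 0.0323) and Mx2 by 1.94 (SE 0.258, adjusted p 0.00908). Bst2 was higher by 1.41 (SE 0.225, adjusted p 0.0185) and Cmpk2 by 1.08 (SE 0.183, adjusted p 0.0250). In these 4 genes and in Ifitm3, 5 of the 9 members, every SN-011 library was above every WT library, against 11.8% of all genes. Ifitm3 was at 0.57 (95% interval 0.27 to 0.87, adjusted p 0.0782) and Rsad2 at 0.52 (0.12 to 0.93, adjusted p 0.176). Isg20 was at 0.18 (-0.48 to 0.83, adjusted p 0.800), Ifitm2 at -0.19 (-0.44 to 0.06, adjusted p 0.403) and Ifitm1 at -0.37 (-0.82 to 0.07, adjusted p 0.359). The median was 0.57 over the members and -0.003 over all genes.

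The 4 calls against WT depended on the WT libraries. Without WT replicate 1 the adjusted p of these genes ran from 0.0572 (Mx2) to 0.131 (Mx1), and without WT replicate 2 from 0.0519 (Mx2) to 0.116 (Mx1), so 0 members were called in either case, where 38 and 48 of all genes were called against 213 with all libraries. The log2 fold changes moved little, with Mx1 at 2.09 and 2.32 and Mx2 at 1.83 and 1.90. Mx1 was also not called without WT replicate 3 (adjusted p 0.0700), PBS replicate 1 (0.0594) or SN-011 replicate 3 (0.0595), nor Cmpk2 without PBS replicate 3 (0.0534), while Ifitm3 was called without WT replicate 3 (0.0331). Without WT replicate 3, Mx2 was at 2.07 (adjusted p 0.0120), Bst2 at 1.67 (adjusted p 0.00727) and Cmpk2 at 1.15 (adjusted p 0.0317), among 245 of 17034 genes called. Without SN-011 replicate 2, the same 4 members were called among 376 of 17014 genes, with Mx1 at 2.05 (adjusted p 0.0481), Mx2 at 1.76 (adjusted p 0.0104), Bst2 at 1.28 (adjusted p 0.0224) and Cmpk2 with an adjusted p of 0.0249. The comparisons share the PBS and WT libraries, so the share of the rise that was left is given only as a description of the group means. Of the difference in CPM between PBS and WT, 54.3% was left with SN-011 for Cmpk2, 41.6% for Mx2, 37.7% for Bst2, 34.4% for Rsad2, 29.3% for Ifitm3, 21.8% for Mx1 and 8.87% for Isg20. The share for Isg20 rests on WT replicate 2, its lowest WT library, and without that library its log2 fold change against WT was -0.085.

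The Y-linked transcripts split the libraries unevenly between the groups. With a term for them in the fit, the same 6 members were called higher with PBS, from Rsad2 at 1.05 (adjusted p 0.0409) to Mx1 at 3.95 (adjusted p 0.00314), among 198 of 16646 genes. The 5 libraries that held them include a single WT and a single SN-011 library, so the spread within those groups was not measured. In these 5, the log2 fold changes of the same 6 members ran from 0.95 for Rsad2 to 4.14 for Mx1. Isg20 was at 0.97 (adjusted p 0.235) with the term and at 0.81 in those libraries. For SN-011 against PBS, the term gave log2 fold changes from -0.11 for Ifitm2 to -1.76 for Mx1, with adjusted p of 0.181 to 0.842. Among the 4 libraries with Xist, 2 WT and 2 SN-011, Bst2 (1.54, adjusted p 0.00601), Mx2 (1.90, adjusted p 0.0159), Cmpk2 (1.18, adjusted p 0.0403) and Ifitm3 (0.69, adjusted p 0.0324) were called higher with SN-011, among 461 of 16595 genes called, and Mx1 was at 2.05 (adjusted p 0.0535).

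**Figure D4:**
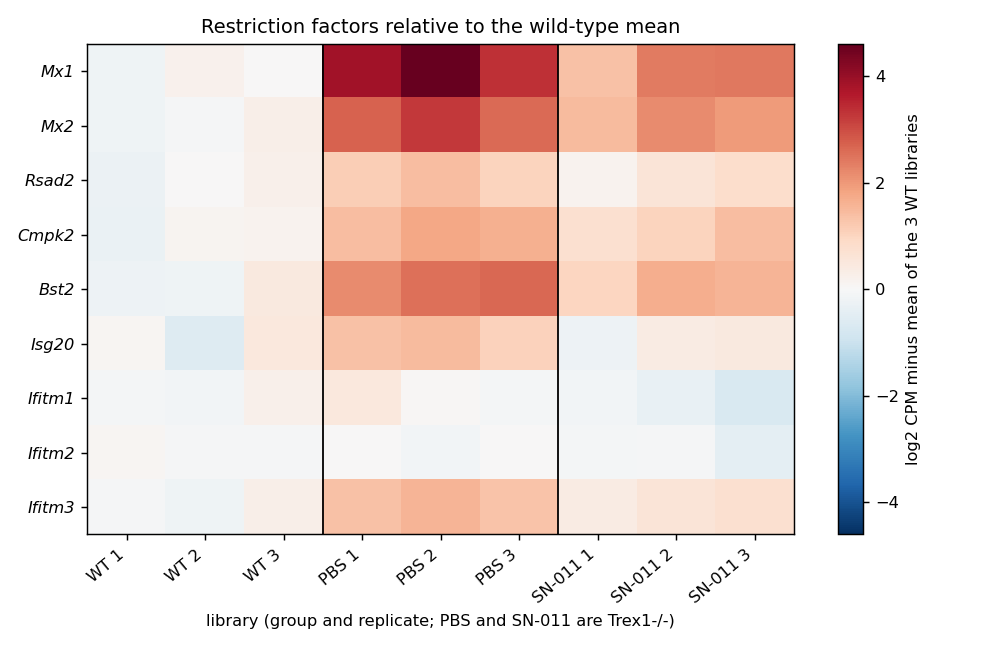
Log2 CPM of each factor (rows) in each of the 9 libraries (columns) minus the mean of the 3 WT libraries, red where higher and blue where lower. Mx1 reaches 4.61 in PBS replicate 2, the 7 factors other than Ifitm1 and Ifitm2 are red in all PBS libraries, and Ifitm1 and Ifitm2 stay pale, with -0.72 and -0.45 in SN-011 replicate 3.

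Across the 9 libraries, log2 CPM of Mx1, Mx2, Rsad2, Cmpk2, Bst2, Ifitm3 and Isg20 varied together. Pearson's r between pairs of them ran from 0.746 (Cmpk2 and Isg20) to 0.983 (Mx1 and Mx2), and the neighbours Rsad2 and Cmpk2 were at 0.950. Ifitm1 had r between -0.06 (Cmpk2) and 0.39 (Isg20) with these 7 genes, Ifitm2 between -0.40 (Cmpk2) and 0.02 (Isg20), and Ifitm1 and Ifitm2 were at 0.677 with each other. These values describe libraries that share a group structure. Over 14833 other genes with a mean of at least 1 CPM, those most like the mean profile of the members were Ifi27l2a (r 0.974), Cybb (0.966), Slc28a2 (0.961), Parp10 (0.960), Upp2 (0.960) and Lgals9 (0.957), over the 9 libraries. Of these 6 genes, 4 were also among the 6 most alike on the log2(CPM + 1) scale. The mean profile was taken over all 9 members, and Ifitm1 (r 0.384) and Ifitm2 (r 0.030) followed it least. Ifi27l2a, an interferon-induced gene, was at 10.5, 10.7 and 19.9 CPM in WT, at 40.3, 41.6 and 40.5 CPM with PBS, and at 16.9, 22.6 and 21.4 CPM with SN-011. WT replicate 3 was the highest WT library for Ifi27l2a, as it was for Mx2, Rsad2, Cmpk2, Bst2, Ifitm1, Ifitm3 and Isg20.

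Most leukocyte marker lists were higher with PBS, as the members were, and Cybb, the phagocyte oxidase subunit named above, is itself abundant in such cells. The 9 macrophage and monocyte markers summed to 150 to 174 CPM in WT, 242 to 267 CPM with PBS and 149 to 218 CPM with SN-011. With PBS, 4 of the 9 were called higher (C1qa, C1qb, C1qc and Ly6c2), and none of the 9 was at 0 counts in any library. Ptprc, the common leukocyte antigen, was at 9.76 to 11.98 CPM in WT, 18.9 to 20.7 CPM with PBS and 11.05 to 21.2 CPM with SN-011. The 7 T and NK cell markers summed to 5.61 to 7.93, 14.4 to 24.4 and 6.18 to 16.5 CPM, with 2 of 6 tested called higher with PBS (Cd3g and Cd4) and Ncr1 at 0 in 2 libraries. The 6 B and plasma cell markers summed to 9.57 to 10.1, 20.1 to 24.97 and 14.1 to 34.1 CPM, with Jchain the 1 called higher of 4 tested. The 4 neutrophil markers summed to 2.12 to 6.25, 5.84 to 9.93 and 5.61 to 11.4 CPM, with 0 of 3 tested called and Ly6g at 0 in 8 libraries. The 2 plasmacytoid dendritic cell markers summed to 0.0943 to 0.405, 0.373 to 0.525 and 0.397 to 0.415 CPM. Their WT and PBS sums overlapped, and both genes were too low to be tested. The B and plasma cell and the neutrophil sums were higher in SN-011 replicates 2 and 3 than in any PBS library, and the T and NK cell sums of these 2 replicates lay within the PBS range. In SN-011 against PBS, all 9 macrophage and monocyte markers and all 6 T and NK cell markers tested were below 0 on the log2 scale, as the members were, with 5 and 1 of them at an unadjusted p under 0.05 and 0 called by edgeR's quasi-likelihood test. Of all 16646 genes tested, 1905 had an unadjusted p under 0.05 there, in either direction. In the same comparison, 2 of the 4 B and plasma cell markers tested and 2 of the 3 neutrophil markers tested were above 0 on the log2 scale and the others below, and none was called by edgeR's quasi-likelihood test, with 1 B and plasma cell marker and 0 neutrophil markers at an unadjusted p under 0.05. The 6 endothelial markers summed to 498 to 550, 490 to 541 and 441 to 570 CPM and overlapped between the groups, with 0 of 6 called. The part of these cells, and of the lower tubule sums, in the members' levels was not tested.

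**Figure D5:**
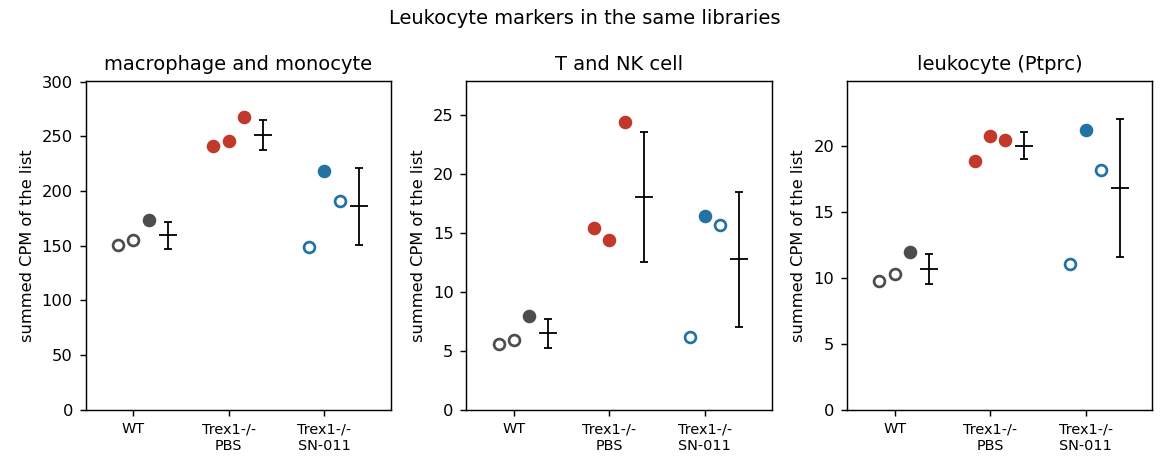
Summed CPM (vertical axes, from 0) of 9 macrophage and monocyte markers, of 7 T and NK cell markers and of Ptprc in each library, with the mean ± SD (n = 3); filled points held Y-linked transcripts and open points Xist. The PBS libraries are above all WT libraries in each panel, and so are SN-011 replicates 2 and 3, while SN-011 replicate 1 lies within the WT range for T and NK cell markers and Ptprc and just below it for macrophage and monocyte markers.

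The relay that carries interferon to these factors was read from 16 genes, of which 15 were tested. With PBS, 5 were called higher and 0 lower, at a median log2 fold change of 0.24. Usp18, a brake on the receptor, was at 2.78 (adjusted p 7.59e-05), Irf7, which amplifies interferon production, at 3.08 (adjusted p 2.37e-04), and the transcription factors Stat2 and Irf9 at 1.44 and 0.86 (adjusted p 3.34e-04 and 7.84e-04). Irf1 completed the 5. Outside the rule for named genes, chosen for their place in the relay, the sensor Cgas was at 1.14 (adjusted p 0.214) and its adaptor Sting1 at 0.24 (adjusted p 0.676), and the receptor chains Ifnar1 and Ifnar2 were at -0.10 and 0.03 (adjusted p 0.672 and 0.938). Ifnb1, an interferon itself, had 0 counts in all 9 libraries, which allows up to 3 counts, or at most 0.186 CPM in any library. With SN-011 against PBS, 0 of the 15 were called by edgeR's quasi-likelihood test and 6 had an unadjusted p under 0.05. Of these 6, Stat2, Irf7, Irf1 and Usp18 were lower, while Irf3 (0.24, adjusted p 0.367) and Ifnar1 (0.23, adjusted p 0.414) were higher. Against WT, 4 stayed higher with SN-011.

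Restriction factors outside the 9 were read from 16 genes, all tested. With PBS, 10 were called higher and 0 lower, at a median log2 fold change of 0.88. Trim30a, a tripartite motif protein, was at 2.13 (adjusted p 2.12e-04), Zc3hav1, which binds viral RNA, at 1.25 (adjusted p 3.66e-04), Ddx60, a helicase, at 2.58 (adjusted p 7.27e-04), and Eif2ak2, the kinase that stops translation, at 1.23 (adjusted p 0.00102). With SN-011 against PBS, 0 of the 16 were called by edgeR's quasi-likelihood test and 10 had an unadjusted p under 0.05, all of them lower, and against WT 5 were called higher. Of 10 structural relatives that are not known mainly as interferon-stimulated genes, 7 were tested and 0 were called in any of the 3 comparisons by edgeR's quasi-likelihood test. At an unadjusted p under 0.05 there was 1 with PBS against WT, 0 with SN-011 against PBS and 2 with SN-011 against WT, beside 2532, 1905 and 2998 of all 16646 genes. So few genes at these background shares say nothing about the relatives as a group. With PBS, the nuclease Aen was at 0.58 (95% interval 0.24 to 0.92, adjusted p 0.0953), the dynamin Dnm1 at -0.57 (-1.15 to 0.0043, adjusted p 0.331), the cytosolic kinase Cmpk1 at 0.18 (-0.04 to 0.41, adjusted p 0.429) and Isg20l2 at 0.13 (-0.12 to 0.38, adjusted p 0.624). Ifitm5, Ifitm6 and Ifitm7 had at most 13 counts in any library and were not tested.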

How the data were processed

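PolyA-selected RNA of mouse kidney was measured in 9 libraries by paired-end RNA-seq with reads of 150 bases. Per the study's methods and the submitters' processing notes, the authors trimmed reads with Trimmomatic, aligned them to mm10 with HISAT2 and counted uniquely mapped read pairs per Ensembl gene with featureCounts. The deposited values are these raw counts, not pooled. The paper describes the library preparation as strand-specific. Tool versions, annotation release and the strand setting used in counting are not given in the sources used here. Symbols and positions came from GENCODE vM21 (GRCm38), and promoter windows from RefSeq (GRCm38.p6).

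The members and gene lists were chosen with earlier results of these data known. The counts were fitted with edgeR 4.0.16 (R 4.3.3). The filter filterByExpr (minimum count 10, minimum total 15) left 16646 genes, and TMM, a trimmed mean of ratios, set the scaling. A single quasi-likelihood model held all 9 libraries and 1 mean for each group. From it, 3 comparisons were taken with the F test and Benjamini-Hochberg adjustment over all genes tested, at a threshold of 0.05. SE was derived from the F statistic, and intervals are 95%. CPM used TMM factors. Log2 CPM for correlations used a prior count of 2. Count ratios within libraries were compared by exact permutation. The steps were tested on simulated data.

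Named genes were the 9 members, the 6 other genes most like their mean z-scored profile, and of each list up to 4 genes with the smallest p in PBS against WT. One gene of the interferon relay list is not reported here, and the list's counts leave it out. Libraries titled only as KO were taken as given PBS, as the extract protocol describes them. No pair of libraries within a group looked like repeats of the same library, as they differed by at least 7.90 times the counting variance. Pairs from different groups were not checked in this way. The alternatives were DESeq2 1.42.0 or upper-quartile scaling, no filter beyond 1 read or a mean of at least 50 counts, limma-voom (limma 3.58.1), the DESeq2 Wald test or the exact test of edgeR, a fit of 6 libraries for each comparison, a block for the replicate number, a Y-linked term, only libraries with Y-linked transcripts or with Xist, and leaving out each library. Depth limits low genes most, such as Mx1 in WT.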

Additional observations from a re-analysis of the deposited data

How the results depend on the processing

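With PBS against WT, the number of members called was 6, and 6 to 7 over the 20 alternatives, and Mx1, Mx2, Rsad2, Cmpk2, Bst2 and Ifitm3 were called in all 20. The member joining them was Isg20. The 20 include the fit of libraries with Y-linked transcripts, which holds a single WT library whose spread was not measured. With SN-011 against PBS, where 0 were called, the count was 5 with no filter beyond 1 read, 6 by DESeq2's Wald test and 4 by edgeR's exact test, and leaving out single libraries gave 0 to 4, with the 4 coming without SN-011 replicate 2. That fit sets SN-011 libraries with Xist against PBS libraries with Y-linked transcripts, so treatment and this split cannot be told apart in it. With SN-011 against WT, where 4 were called, the count was 1 with only the 6 libraries of the comparison (Mx2). The fit of only libraries with Y-linked transcripts sets 1 WT library against 1 SN-011 library. Its spread was taken from the PBS libraries alone, so no count is given for it. The count was 5, with Ifitm3 added, with no filter beyond 1 read, by DESeq2's Wald test, by edgeR's exact test and with the Y-linked term, and leaving out single libraries gave 0 to 4, with 0 without WT replicate 1 or 2. By limma-voom, Mx1 was not called. The cause of these shifts was not tested. The count over all genes ranged from 153 to 774 in PBS against WT (313 as reported), from 0 to 519 in SN-011 against PBS (0) and from 38 to 806 in SN-011 against WT (213).

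Values near 0 changed sign. Leaving out single libraries gave Ifitm1 at -0.023 to 0.28 and Ifitm2 at -0.067 to 0.014 in PBS against WT, and Isg20 at -0.085 to 0.44 in SN-011 against WT. In PBS against WT, Ifitm1 was at -0.053 and Ifitm2 at 0.0065 in libraries with Y-linked transcripts, Ifitm1 at -0.023 without PBS replicate 1 and Ifitm2 at 0.014 without WT replicate 1. In SN-011 against WT, Ifitm2 was at 0.0056 and Isg20 at -0.10 in libraries with Y-linked transcripts, and Isg20 at -0.085 without WT replicate 2. None of these 4 was called under any alternative.

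The replicate block gave 6, 0 and 4 members called in the 3 comparisons, as without it. Deviations of samples with the same replicate number correlated at -0.294 to 0.242, so the numbers were not taken as pairs. Restricting to libraries with Xist left no PBS library.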
